A study of Homo sapiens with 9 samples.

Results

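The genes described here are 10 regulators and products that separate the germinal centre B cell from the plasma cell: PRDM1, IRF4, XBP1, JCHAIN, MZB1, SDC1, TNFRSF17, PAX5, BCL6 and BACH2. They were chosen by name, for their known roles in these cell states, but with earlier results of these data known. They are 10 of the 59050 gene symbols in the count table. Their RNA was measured in MEC1, an established cell line derived from chronic lymphocytic leukemia (CLL), a malignancy of mature B cells. The comparisons ask how the line changes when it is printed into a 3D hydrogel scaffold in place of growing in standard 2D culture. There were 3 samples of 2D culture, for which the labels give no time, 3 of bioprinted scaffolds harvested after 7 days (3D_7d) and 3 harvested after 14 days (3D_14d). All samples come from the same line, so the model is a single leukemia grown with no other cells. The sample titles carry the letters MECPGK in every group, which the labels do not explain. RNA from scaffolds was isolated with TRIzol, treated with DNase I and then purified on a column, whereas RNA of 2D cultures came from the column kit only, so culture and extraction cannot be told apart in any comparison with 2D. Both 3D time points were extracted in the same way.

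A B cell in the germinal centre is held in that state by transcriptional repressors, among them BCL6 and BACH2, and keeps its B cell identity through PAX5. When it becomes a plasma cell, IRF4 and PRDM1 (the protein Blimp-1) rise, PRDM1 shuts down genes of the B cell program, and XBP1 expands the endoplasmic reticulum for secretion. JCHAIN and MZB1 then serve the assembly of immunoglobulin, and SDC1 (CD138) and TNFRSF17 (BCMA) mark the surface of the plasma cell.

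Between 57152440 and 85968686 reads were assigned to genes in the 2D samples, between 54810673 and 58272630 in 3D_7d, and between 54662799 and 61246772 in 3D_14d. Replicates of 3D_14d lay further apart than those of the other groups, with a median absolute log2 difference per gene between pairs of 0.31 to 0.46, against 0.14 to 0.19 in 2D and 0.16 to 0.25 in 3D_7d, and replicate 1 of 3D_14d was the furthest from its group. Of 7 B cell markers, 6 passed the filter on expression and their sum was 2595 to 2612 CPM in 2D, 2832 to 3580 in 3D_7d and 3555 to 3930 in 3D_14d. CD5, which most CLL cells carry, was near 0 in every group, with means of 0.362 CPM in 2D, 0.0764 in 3D_7d and 0.0670 in 3D_14d. The sum of 10 markers of T and NK cells was 14.5 to 18.4 CPM in 2D, 92.1 to 130 in 3D_7d and 215 to 416 in 3D_14d, and GNLY supplied most of it with means of 13.4, 113 and 289 CPM, while CD3D, CD3G and CD8B stayed at 3 counts or fewer in every sample. The sum of 7 myeloid markers did not exceed 5.17 CPM, and that of 5 stromal markers did not exceed 11.4. For 5 endothelial and epithelial markers the sum was 13.0 to 16.5 in 2D, 35.1 to 50.1 in 3D_7d and 47.2 to 77.7 in 3D_14d. PECAM1 supplied most of it with means of 13.8, 42.4 and 64.5 CPM, while VWF, EPCAM, KRT8 and KRT18 each stayed under 1 CPM in every sample. The part of these markers in the results below was not tested.

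Of the 10 genes, 8 passed the filter, a CPM (count relative to the library size) above 1 in at least 3 samples, and BCL6 and BACH2 did not. The filter used library sizes without scaling, whereas the CPM values given here are scaled by TMM. In 3D_7d vs 2D, 3 of the 8 were up-regulated (PRDM1, IRF4, JCHAIN) and 2 were down-regulated (MZB1, SDC1) at an adjusted p of at most 0.05 (edgeR's quasi-likelihood test, Benjamini-Hochberg over 13463 genes). The shares over all tested genes were 22.2% up and 21.2% down in this comparison. In 3D_14d vs 2D, 2 were up-regulated (JCHAIN, PRDM1) and 2 down-regulated (MZB1, SDC1), against 19.0% and 17.2% of all tested genes. In 3D_14d vs 3D_7d, 2 were higher (JCHAIN, MZB1) and 2 lower (PRDM1, IRF4), against 14.5% and 13.6% of all tested genes. The median log2 fold change of the 8 genes was 0.25, 0.26 and 0.20 in the 3 comparisons, beside medians of 0.00, 0.02 and 0.00 over all tested genes. The 2 comparisons with 2D share the same 2D samples. The labels do not say whether replicates were separate cultures, so the p-values measure the spread between these samples, which may be technical. As these are bulk samples, fewer cells with a transcript and less of it per cell cannot be told apart.

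**Figure D1:**
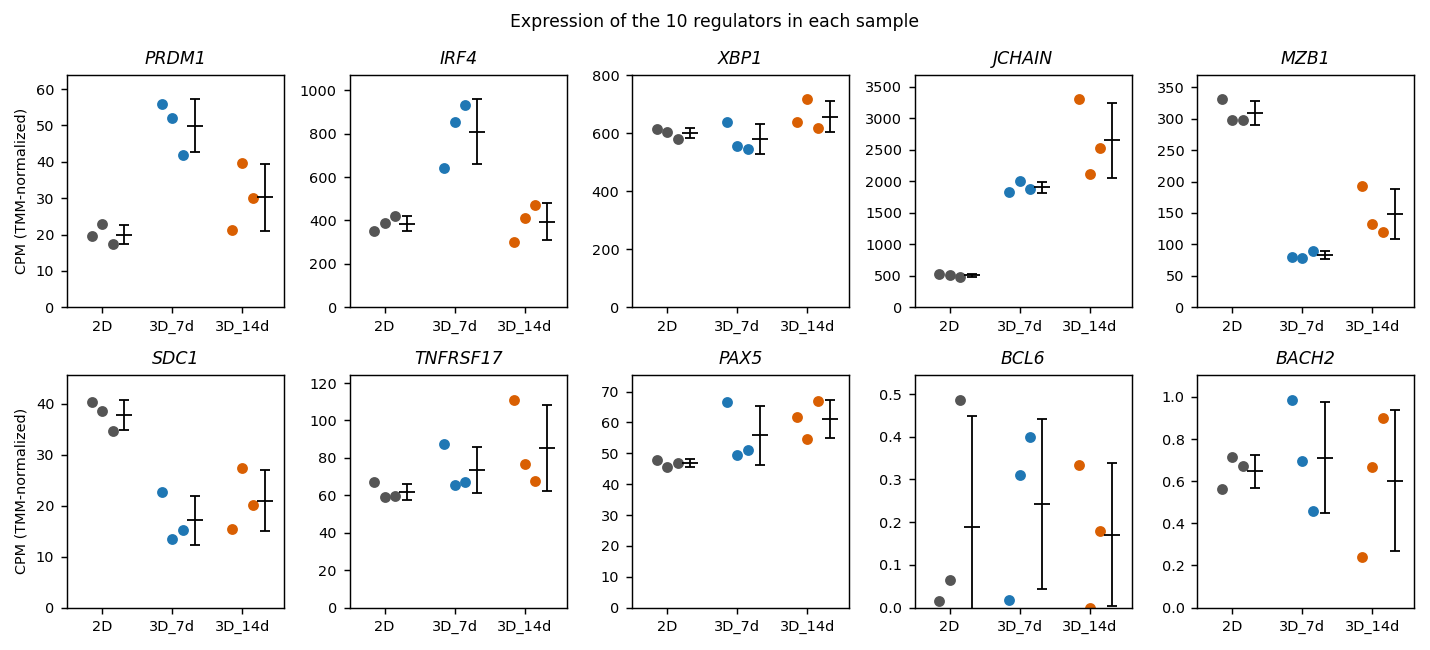
Expression of the 10 genes in each of the 9 samples, in CPM on a linear axis that starts at 0, with replicates 1 to 3 from left to right and the mean and SD (n = 3) as a bar beside them. The 3D samples of JCHAIN lie between 1827 and 3299 CPM against 489 to 526 in 2D, those of MZB1 lie below every 2D sample, and BCL6 and BACH2 stay under 1 CPM throughout.

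The sequences before the start sites of 4 of the genes are shown because these 4 were past the threshold in 3D_14d vs 3D_7d and because several of the 10 genes encode factors that bind DNA. Each is the 250 bases before a start site on the strand of the gene, 5′ to 3′, from the RefSeq promoter table (GRCh38.p14), and capitals mark the matches described. For JCHAIN (chr4:70666509-70666758, minus strand, inside the span annotated for the gene) the capitals are TGAGTCA, the core that BACH2 and MAF proteins bind and that AP-1 binds too. For MZB1 (chr5:139389914-139390163, minus strand) they are CCACG, part of the site of XBP1 in the endoplasmic reticulum stress element, which is present on both strands in overlapping positions. For IRF4 (chr6:391502-391751, plus strand) they are GNGAAAG on the reverse strand, the core of the PRDM1 site. For PRDM1 (chr6:106086086-106086335, plus strand, inside the annotated span too) they are GNGAAAG once and CCACG at 2 positions.
JCHAIN: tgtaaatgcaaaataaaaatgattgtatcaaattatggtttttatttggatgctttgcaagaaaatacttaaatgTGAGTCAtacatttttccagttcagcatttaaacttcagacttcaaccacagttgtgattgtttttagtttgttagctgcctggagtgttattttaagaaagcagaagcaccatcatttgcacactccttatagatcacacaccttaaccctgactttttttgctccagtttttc
MZB1: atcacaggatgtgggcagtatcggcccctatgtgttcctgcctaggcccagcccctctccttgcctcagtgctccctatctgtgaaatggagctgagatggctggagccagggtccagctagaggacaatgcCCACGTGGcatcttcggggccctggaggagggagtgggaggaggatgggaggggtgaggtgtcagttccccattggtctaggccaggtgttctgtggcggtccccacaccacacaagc
IRF4: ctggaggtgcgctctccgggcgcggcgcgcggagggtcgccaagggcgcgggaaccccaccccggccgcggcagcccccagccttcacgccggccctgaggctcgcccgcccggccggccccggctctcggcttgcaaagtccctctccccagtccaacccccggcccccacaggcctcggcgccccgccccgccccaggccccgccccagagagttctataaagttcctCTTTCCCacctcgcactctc
PRDM1: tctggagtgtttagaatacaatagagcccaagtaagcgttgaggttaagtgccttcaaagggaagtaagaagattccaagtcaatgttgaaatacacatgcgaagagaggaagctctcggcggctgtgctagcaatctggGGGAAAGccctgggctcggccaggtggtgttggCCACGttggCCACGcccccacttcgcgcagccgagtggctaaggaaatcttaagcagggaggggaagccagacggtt
Across both strands, 9 of the 10 genes had an entry in the table, with 13 windows in all. TGAGTCA was found in 3 of the 13 windows (JCHAIN, BCL6 and a second window of PRDM1) and in 4.2% of all 35116 windows of the table, GNGAAAG in 2 and in 19.4%, and CCACG in 7 and in 33.5%. GGAANNGAA, a composite of ETS factors and IRF4 without its last letter, was found in 1 window and in 6.58% of all. GAAANNGAA, the interferon-stimulated response element without its last letter, and TTCCTNGAA, for BCL6, were in none of the 13 windows, and in 6.88% and 1.37% of all. A match is only a match of letters in these windows.

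PRDM1 (chr6:105993463-106109939, plus strand, GRCh38 as for the genes below), the repressor that ends the B cell program in the plasma cell, was more than doubled at day 7 and closer to 2D at day 14. The 2D samples held 19.7, 22.8 and 17.5 CPM, the 3D_7d samples 55.9, 52.0 and 41.9, and the 3D_14d samples 21.2, 39.6 and 30.1. Every 3D_7d sample was above every 2D sample and every 3D_14d sample, while replicate 1 of 3D_14d lay within the range of 2D. The log2 fold change was 1.32 (SE 0.220, edgeR adjusted p = 5.08e-04) in 3D_7d vs 2D, 0.60 (SE 0.218, adjusted p = 0.047) in 3D_14d vs 2D and -0.72 (SE 0.217, adjusted p = 0.0266) in 3D_14d vs 3D_7d. The increase at day 14 was weakly supported: it stayed past the threshold in 6 of 18 alternatives, with adjusted p between 0.00321 and 0.196, and among the samples left out in turn only the removal of replicate 1 of 3D_14d kept it there. The decrease between the time points was kept in 13 of 18 alternatives. It was lost with only the 6 samples compared, and without replicate 1 or 2 of 3D_7d or replicate 1 or 3 of 3D_14d (edgeR adjusted p between 0.0515 and 0.0773).

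IRF4 (chr6:391752-411443, plus strand), which drives plasma cell fate at high levels and acts with ETS factors in other B cells, doubled at day 7 and had the level of 2D at day 14. Its values were 350, 387 and 421 CPM in 2D, 642, 853 and 930 in 3D_7d, and 301, 409 and 470 in 3D_14d. The 3D_7d samples did not overlap the other groups, and the range of 3D_14d enclosed that of 2D. The fold change was 2.10 at day 7 (log2 1.07, SE 0.188, edgeR adjusted p = 7.17e-04) and 1.02 at day 14 (log2 0.03, SE 0.186, adjusted p = 0.917), the latter with a direction that turned with the scaling by total counts. The log2 fold change of IRF4 in 3D_14d vs 3D_7d was -1.04 (SE 0.188, adjusted p = 0.00213), past the threshold in all 18 alternatives.

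XBP1 (chr22:28794555-28800597, minus strand), whose mRNA is spliced by the sensor IRE1 into the form that encodes the active factor, differed little between the cultures. Its total RNA was 616, 604 and 581 CPM in 2D, 639, 555 and 546 in 3D_7d, and 638, 717 and 617 in 3D_14d. The ranges of 2D and 3D_7d overlapped, and 3D_14d reached higher than both. The log2 fold changes were -0.05 (SE 0.131, edgeR adjusted p = 0.789) at day 7 and 0.13 (SE 0.131, adjusted p = 0.457) at day 14, and under the scaling by total counts the latter was -0.07. Counts per gene do not separate the spliced from the unspliced mRNA.

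JCHAIN (chr4:70655541-70666975, minus strand), the chain that joins IgM and IgA into polymers, showed the largest increase of the 8 tested genes. Its values were 526, 507 and 489 CPM in 2D, 1827, 2004 and 1875 in 3D_7d, and 3299, 2120 and 2528 in 3D_14d. The 3 groups did not overlap, with replicate 1 of 3D_14d the highest of all. The fold change was 3.75 at day 7 (log2 1.91, SE 0.165, edgeR adjusted p = 7.49e-06) and 5.22 at day 14 (log2 2.39, SE 0.168, adjusted p = 3.59e-06), and both were kept in all 18 alternatives. The further rise between the time points was 0.48 on the log2 scale (SE 0.160, adjusted p = 0.0414). It was kept in 6 of 18 alternatives and was 0.31 (adjusted p = 0.0773) without replicate 1 of 3D_14d, and 0.20 (adjusted p = 0.249) with a trend of gene length removed, and it was also lost when any sample of 2D or 3D_7d was left out. An antisense gene shares 5.66% of the exonic bases of JCHAIN but had at most 97 counts in a sample.

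MZB1 (chr5:139387568-139389914, minus strand), a chaperone of the endoplasmic reticulum that assists the assembly and secretion of IgM, moved in the opposite direction. Its values were 331, 298 and 298 CPM in 2D, 80.2, 78.0 and 89.6 in 3D_7d, and 193, 132 and 119 in 3D_14d. The 3 groups did not overlap: 2D was highest, 3D_7d lowest and 3D_14d between them. The mean in 2D was 3.74 times that of 3D_7d (log2 -1.90, SE 0.180, edgeR adjusted p = 1.19e-05) and 2.08 times that of 3D_14d (log2 -1.06, SE 0.176, adjusted p = 6.69e-04), and both decreases were kept in all 18 alternatives. From day 7 to day 14 MZB1 rose by 0.84 on the log2 scale (SE 0.175, adjusted p = 0.00455), which was 0.32 (adjusted p = 0.075) after a trend with gene length was removed from each library. MZB1 has only 825 exonic bases, and with the same trend removed its decrease at day 7 was -1.45.

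JCHAIN and MZB1, which serve the same product, had similar levels per kilobase of exon in 2D and diverged in 3D. The ratio of JCHAIN to MZB1 per kilobase was 0.854, 0.914 and 0.881 in the 2D samples, 12.2, 13.8 and 11.2 in 3D_7d, and 9.18, 8.59 and 11.4 in 3D_14d. Every 3D sample was thus far above every 2D sample, and the ranges of the 3D time points overlapped. An exact permutation test on 3 against 3 samples cannot give a two-sided p under 0.1.

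SDC1 (chr2:20200797-20225433, minus strand), the heparan sulfate proteoglycan CD138, was lower in 3D. Its values were 40.4, 38.5 and 34.6 CPM in 2D, 22.6, 13.5 and 15.2 in 3D_7d, and 15.4, 27.3 and 20.1 in 3D_14d. Each 3D value lay under the lowest value of 2D, and the time points overlapped. The log2 fold change was -1.15 (SE 0.236, edgeR adjusted p = 0.00192) in 3D_7d vs 2D and -0.85 (SE 0.234, adjusted p = 0.0130) in 3D_14d vs 2D, both kept in all 18 alternatives, and 0.29 (SE 0.234, adjusted p = 0.371) between the time points.

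TNFRSF17 (chr16:11965210-11968068, plus strand), the receptor BCMA for BAFF and APRIL, did not pass the threshold in any of the 3 comparisons. It had 66.9, 59.3 and 59.7 CPM in 2D, 87.5, 65.5 and 67.2 in 3D_7d, and 111, 76.6 and 67.5 in 3D_14d. Replicate 1 was the highest sample of each group. The 3D_14d samples lay above those of 2D, replicate 3 only just. The log2 fold change was 0.24 (SE 0.190, edgeR adjusted p = 0.320) at day 7 and 0.46 (SE 0.190, adjusted p = 0.0778) at day 14. After removal of the trend with gene length, the gene (891 exonic bases) passed at both times, with 0.66 (adjusted p = 0.00207) and 0.39 (adjusted p = 0.0447).

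PAX5 (chr9:36833269-37034268, minus strand), the factor that maintains B cell identity and that PRDM1 is known to repress, likewise did not pass. It had 48.0, 45.7 and 47.0 CPM in 2D, 66.8, 49.6 and 51.2 in 3D_7d, and 61.9, 54.5 and 66.9 in 3D_14d. Every 3D sample was slightly above every 2D sample. The log2 fold change was 0.25 (SE 0.154, edgeR adjusted p = 0.202) at day 7 and 0.38 (SE 0.154, adjusted p = 0.0689) at day 14, and the latter passed in 3 of 18 alternatives.

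BCL6 (chr3:187721377-187745725, minus strand), the master repressor of the germinal centre, and BACH2 (chr6:89926528-90296908, minus strand), which holds back PRDM1 in B cells, were close to the limit of detection. BCL6 had 1, 6 and 37 counts in the 2D samples, 1, 17 and 21 in 3D_7d, and 18, 0 and 10 in 3D_14d, out of at least 54662799 per sample, and the 0 allows up to 3 counts. BACH2 had 34, 66 and 51 counts in 2D, 57, 38 and 24 in 3D_7d, and 13, 35 and 50 in 3D_14d. The groups overlapped for both genes. Without a filter on expression, over 51726 genes, their adjusted p lay between 0.855 and 0.99 in the 3 comparisons, so a difference was not detectable at these counts. Antisense genes share 12.0% of the exonic bases of BCL6 and 4.27% of those of BACH2, and none of these had more than 2 counts in a sample.

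**Figure D2:**
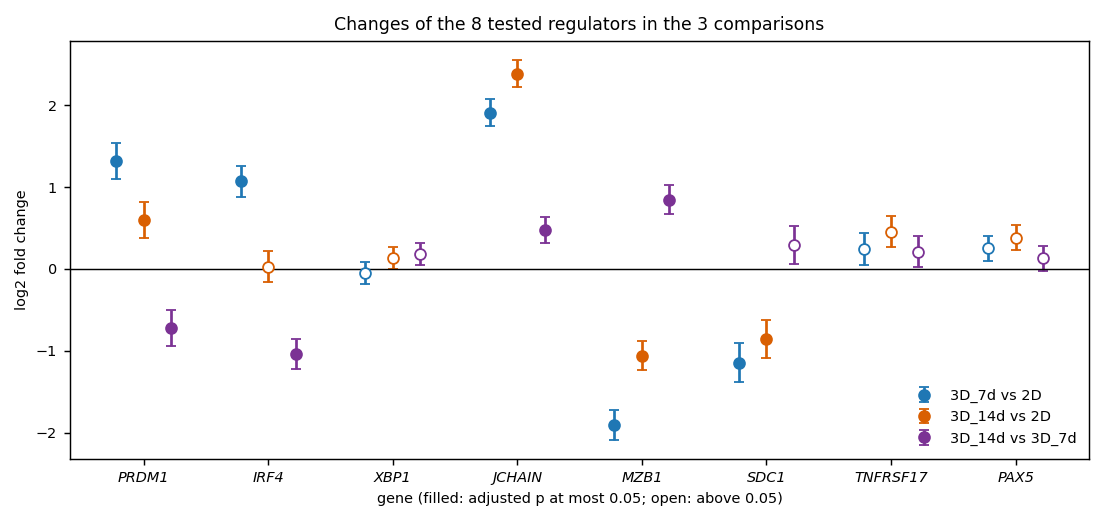
Log2 fold change with its SE (bars) of the 8 tested genes in the 3 comparisons, from the edgeR fit of all 9 samples, with filled points at an adjusted p of at most 0.05. JCHAIN reaches 2.39 at day 14 and MZB1 -1.90 at day 7, while XBP1, TNFRSF17 and PAX5 have open points in every comparison.

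Levels were compared between genes only per kilobase of exon. In 2D the order of the means was MZB1 (374 CPM per kilobase), JCHAIN (330), XBP1 (294), IRF4 (72.6), TNFRSF17 (69.6), SDC1 (11.3), PAX5 (5.32), PRDM1 (3.32), BACH2 (0.0698) and BCL6 (0.0468). Only IRF4 and TNFRSF17, and BACH2 and BCL6, overlapped as neighbours in this order. In 3D_7d JCHAIN led with 1238 CPM per kilobase, followed by XBP1 with 285, IRF4 with 152 and MZB1 with 100, and the samples of MZB1 overlapped those of TNFRSF17. In 3D_14d JCHAIN had 1725, XBP1 322 and MZB1 180 CPM per kilobase. PRDM1, PAX5 and SDC1 overlapped one another in 3D_14d. Across all cultures JCHAIN, MZB1 and XBP1 thus stood above 90 CPM per kilobase in each sample, and PRDM1 stayed under 10.

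**Figure D3:**
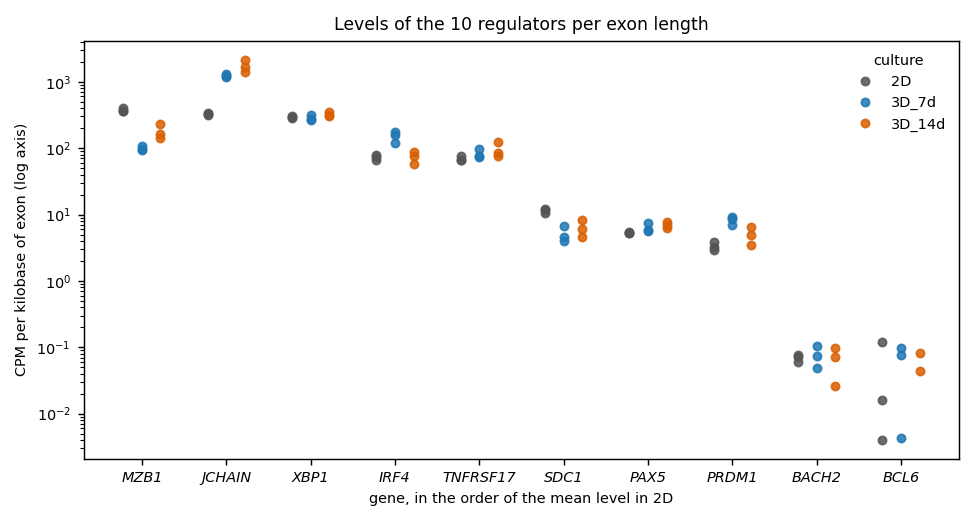
Levels of the 10 genes in CPM per kilobase of exon on a log axis, one point per sample, in the order of the mean in 2D (a sample with 0 counts of BCL6 is not drawn). MZB1 leads in 2D with a mean of 374 and JCHAIN in 3D, with means of 1238 and 1725, and BACH2 and BCL6 lie far below the other 8 genes.

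Among themselves, the profiles over the 9 samples were most alike for PAX5 and XBP1, with a root mean square difference of centred log2 CPM of 0.19, and least alike for JCHAIN and MZB1, at 1.72. IRF4 and PRDM1 differed by 0.37, and MZB1 and SDC1 by 0.50. Among all tested genes, the closest profile to JCHAIN was that of STX1A (0.18), followed by IL10 (0.21), a cytokine of B cells, and IL18BP (0.23), the binding protein of interleukin 18. IL10 had a mean of 7.06 CPM in 2D, 21.1 in 3D_7d and 36.1 in 3D_14d. The closest profiles to MZB1 were those of SNHG32 (0.07), the host of small nucleolar RNAs, and of the ribosomal protein genes RPS3 (0.10) and RPL8 (0.12). RPS3 went from 1139 CPM in 2D to 351 in 3D_7d and 615 in 3D_14d. The profile of IRF4 was closest to SRSF1 (0.09), a splicing factor, then GART (0.09) and INTS7 (0.13), and TRAK2 (0.17) and UBE2G2 (0.17) were among the 3 closest to PRDM1. SDC1 was closest to AC011497.2 (0.10), CD22 (0.11) and APOBEC3B (0.14), TNFRSF17 to HOXB2 (0.06), FBXW4 (0.09) and IRF3 (0.09), PAX5 to PREX1 (0.10), WIPF2 (0.10) and ZNF827 (0.11), and XBP1 to CTDSP2 (0.06), BRF1 (0.07) and TRAF3IP3 (0.07).

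Of 24 germinal centre genes, 20 were tested. In 3D_7d vs 2D, 3 were up-regulated and 7 down-regulated, beside 22.2% and 21.2% of all tested genes, with a median log2 fold change of -0.02. RGS13, counted as up-regulated at both times, had 0.735 CPM in 2D and 1.82 in 3D_7d and passed the filter only through 3D samples. MYBL1 (2.18 and 0.435 CPM) and MEF2B (1.04 and 0.415), counted as down-regulated at day 7, passed it through 2D, where they were high. Their part in these counts is thus no separate support for a change. In 3D_14d vs 2D, 7 were up-regulated and 5 down-regulated (19.0% and 17.2% of all), with a median of 0.19. The 7 up-regulated fell to 4 with the scaling by total counts and when any 1 of the 2D samples was left out. They also became fewer with no filter or with a minimum log2 fold change of 1, and the lowest count was 3. With that minimum the 7 down-regulated at day 7 became 4. SPIB, an ETS factor, had 26.8 ± 2.65 CPM (mean ± SD, n = 3, as in all such values) in 2D and rose to 77.6 ± 8.47 and 75.1 ± 11.7. NEIL1, a DNA glycosylase, fell from 41.9 ± 4.38 CPM to 11.3 ± 4.14 and 11.7 ± 1.57, and KLHL6, a ubiquitin ligase adaptor, from 23.6 ± 0.824 CPM to 7.87 ± 3.24 and 9.45 ± 3.01. EZH2, the histone methyltransferase of the germinal centre, had 69.6 ± 8.43 CPM in 2D and 65.4 ± 9.76 in 3D_7d and fell to 34.2 ± 2.15 in 3D_14d (log2 -1.03 against 2D, adjusted p = 3.85e-04). In 3D_14d vs 3D_7d, EZH2 (-0.94, edgeR adjusted p = 0.00139) was the 1 lower gene of the list and 0 were higher, beside 13.6% and 14.5% of all. At an unadjusted p under 0.05 5 were higher, and 3 were by DESeq2. The higher genes were also 2 with the replicate block or the length trend removed, 1 without replicate 2 of 3D_14d and 3 without its replicate 3, and the lower genes were 2 without replicate 1 of 3D_7d. MME (CD10) and LMO2, further markers of germinal centre cells, were among the 4 genes under the filter.

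The 7 partners of BCL6 and BACH2 were all tested, although BCL6 and BACH2 were not. BCOR, a corepressor recruited by BCL6, rose from 13.8 ± 2.38 CPM in 2D to 31.2 ± 2.14 in 3D_7d (log2 1.17, edgeR adjusted p = 0.00132) and 23.2 ± 7.04 in 3D_14d (0.74, adjusted p = 0.0216). MAFF, a small MAF protein, fell from 5.44 ± 1.33 CPM in 2D to 1.30 ± 0.991 in 3D_7d and rose to 8.66 ± 3.09 in 3D_14d (2.73 between the time points, adjusted p = 0.00156). MAFG, which can pair with BACH2, had 22.2 ± 3.44, 13.5 ± 3.97 and 32.9 ± 10.02 CPM, and its decrease at day 7 (-0.72, adjusted p = 0.0342) was lost without replicate 1 of 2D or replicate 2 or 3 of 3D_7d. In all, 1 partner was higher and 2 lower at day 7, and 2 higher and 0 lower at day 14 (edgeR; 0 were lower at an unadjusted p under 0.05 and 0 by DESeq2), beside 22.2%, 21.2%, 19.0% and 17.2% of all tested genes. From 3D_7d to 3D_14d 3 rose and 0 fell (also 0 at an unadjusted p under 0.05 and 0 by DESeq2), beside 14.5% and 13.6% of all tested genes. The 2 higher at day 14 became 1 without replicate 1 or 3 of 2D or replicate 3 of 3D_14d. The increase of BCOR at day 14 was lost without replicate 1 or 3 of 2D, without replicate 2 or 3 of 3D_14d, with only 6 samples and with total counts as scaling.

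Of 9 genes that PAX5 is known to activate, all were tested. In 3D_7d vs 2D, 0 were higher and 1 was lower, and in 3D_14d vs 2D, 3 were higher and 0 were lower by edgeR, beside 22.2%, 21.2%, 19.0% and 17.2% of all tested genes. The counts of 0 were also 0 at an unadjusted p under 0.05 and 0 by DESeq2, but 1 was lower at day 14 with total counts as scaling, and 1 was higher at day 7 with only 6 samples or with the length trend removed. From 3D_7d to 3D_14d, 4 were higher and 0 lower (0 also at an unadjusted p under 0.05 and by DESeq2), beside 14.5% and 13.6% of all tested genes. CD79A, a signalling chain of the B cell receptor, had 509 ± 55.0 CPM in 2D, 630 ± 72.6 in 3D_7d and 1312 ± 268 in 3D_14d (1.06 between the time points, edgeR adjusted p = 0.00106). CD72, a coreceptor of B cells, had 65.2 ± 0.743, 59.7 ± 12.5 and 121 ± 24.8 CPM. TNFRSF13C, the BAFF receptor, fell from 67.3 ± 3.22 CPM in 2D to 31.8 ± 1.77 in 3D_7d (-1.08, adjusted p = 1.12e-04) and was back at 65.6 ± 8.38 in 3D_14d. The fourth gene that was higher at day 14 than at day 7 was FCER2 (CD23), named here after its value of 0.60 was seen.

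Genes that PRDM1 is known to repress moved in both directions. Of 7 tested (CXCR5 was under the filter), 4 rose and 3 fell at day 7, and 3 rose and 2 fell at day 14, beside 22.2% and 21.2% of all tested genes at day 7 and 19.0% and 17.2% at day 14. MYC, the driver of growth, fell from 459 ± 30.6 CPM in 2D to 93.0 ± 16.7 in 3D_7d (-2.30, edgeR adjusted p = 8.69e-06) and 108 ± 27.7 in 3D_14d. CD22, an inhibitory coreceptor, fell from 542 ± 17.6 CPM to 250 ± 52.2 and 333 ± 84.0. CIITA, the activator of MHC class II genes, had 115 ± 17.4 CPM in 2D, rose to 191 ± 25.8 in 3D_7d (0.74, adjusted p = 0.0193) and fell to 104 ± 35.4 in 3D_14d (-0.88 between the time points, adjusted p = 0.0133, lost without replicate 3 of 3D_7d). SPIB, also in the germinal centre list, was among the genes that rose.

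**Figure D4:**
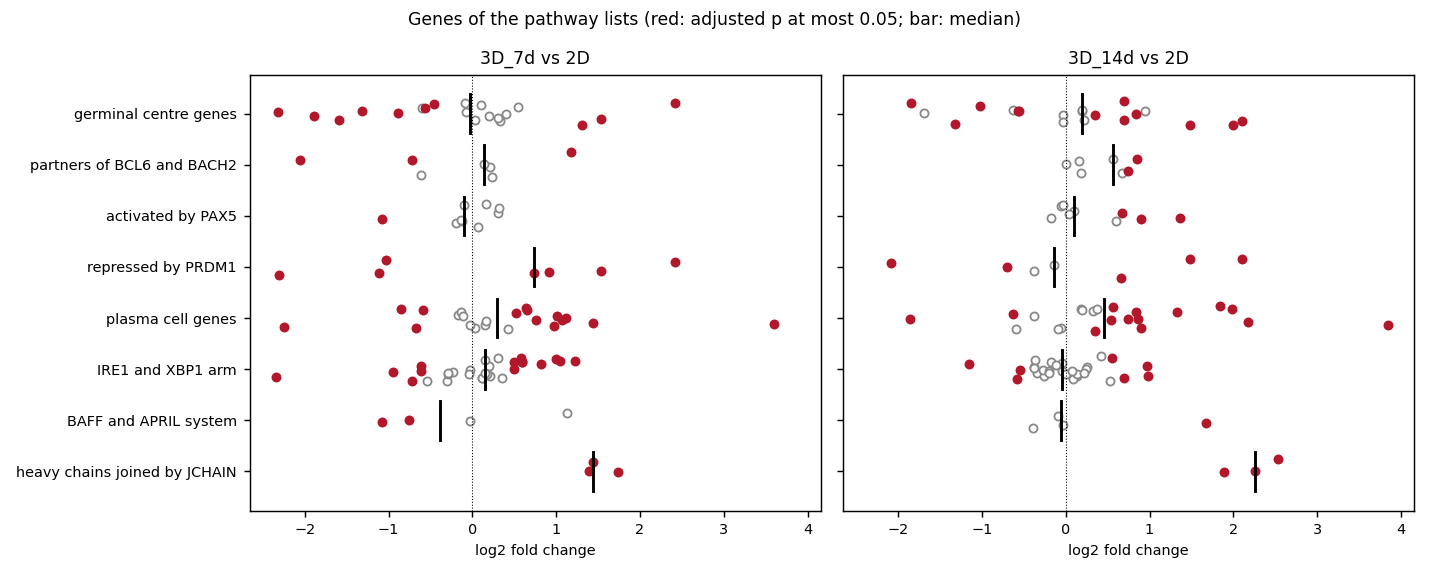
Log2 fold change of each tested gene in 8 lists of related genes, in 3D_7d vs 2D (left) and 3D_14d vs 2D (right), with the median of each list as a bar and red points at an adjusted p of at most 0.05 (edgeR). Plasma cell genes have medians of 0.30 and 0.46 and genes on both sides of 0, the 3 heavy chains are all to the right of 0, and the germinal centre list spreads in both directions.

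Of 22 plasma cell genes, all tested, 10 were up-regulated and 4 down-regulated in 3D_7d vs 2D and 12 and 2 in 3D_14d vs 2D, beside 22.2%, 21.2%, 19.0% and 17.2% of all tested genes. The medians were 0.30 and 0.46. Of these counts, the 12 became 7 without replicate 2 or replicate 3 of 2D, and the 2 became 4 without replicate 1 of 3D_14d and with the scaling by total counts. With a minimum log2 fold change of 1, the 10 became 5, the 4 became 1 and the 12 became 5. The 2 also moved with that minimum and with the gene length trend removed, and lay between 1 and 4 over all settings. The sum of T and NK cell markers, above all GNLY, rose over the same groups (14.5 to 18.4, 92.1 to 130 and 215 to 416 CPM), and its part in these counts was not tested. ITM2C, a membrane protein of plasma cells, rose from 29.8 ± 1.76 CPM in 2D to 80.6 ± 8.47 in 3D_7d and 135 ± 6.01 in 3D_14d (log2 2.18 at day 14, edgeR adjusted p = 2.23e-06). CD27, the memory and plasma cell receptor, rose from 201 ± 19.2 CPM to 406 ± 35.3 and 797 ± 165. ELL2, the elongation factor that favours the secreted form of immunoglobulin mRNA, rose only transiently, with 79.5 ± 3.18 CPM in 2D, 173 ± 2.48 in 3D_7d and 90.4 ± 27.4 in 3D_14d (-0.93 between the time points, adjusted p = 0.00447). This was the course of IRF4 as well.

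The 4 plasma cell genes that fell at day 7 were DERL3, FKBP11, CREB3L2 and SSR4, the last a translocon subunit named after its value (-0.59) was seen, and DERL3 and CREB3L2 were the 2 at day 14. DERL3, a component of the degradation pathway of the endoplasmic reticulum, fell from 9.84 ± 0.833 CPM in 2D to 2.07 ± 0.525 in 3D_7d (-2.25, edgeR adjusted p = 1.79e-04) and 2.72 ± 1.08 in 3D_14d. FKBP11, a prolyl isomerase of secretory cells, fell from 42.5 ± 3.24 CPM to 23.6 ± 1.64 in 3D_7d and had 32.8 ± 4.12 in 3D_14d (-0.37, adjusted p = 0.0712). CREB3L2, a factor that supports secretion, fell from 80.4 ± 3.55 CPM to 50.6 ± 1.38 and 51.8 ± 8.34. TENT5C, a poly(A) polymerase that stabilizes immunoglobulin mRNA in plasma cells, was picked after its values were seen, as it had the largest change of the list. It was low, with 0.224 ± 0.251 CPM in 2D, 2.75 ± 1.46 in 3D_7d and 3.26 ± 1.03 in 3D_14d (log2 3.61, edgeR adjusted p = 0.00114, and 3.85, adjusted p = 0.00105). TENT5C passed the filter on expression only through 3D samples, where it was high. These p-values, and its part in the counts of up-regulated plasma cell genes, are thus no separate support for its rise.

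Of 30 genes in the arm of the unfolded protein response around IRE1 and XBP1, all tested, 9 rose and 5 fell in 3D_7d vs 2D, 4 rose and 3 fell in 3D_14d vs 2D, and 5 rose and 8 fell in 3D_14d vs 3D_7d, with medians of 0.15, -0.04 and -0.07. The shares of all tested genes were 22.2% up and 21.2% down, 19.0% and 17.2%, and 14.5% and 13.6%. With total counts as scaling 9 fell at day 7 and 8 at day 14, and with only the 6 samples compared 10 fell at day 7. Between the time points 8 rose by DESeq2 and 3 without a filter, and with only 6 samples 3 rose and 4 fell. Without replicate 2 or without replicate 3 of 3D_14d 6 fell at day 14, and without replicate 2 or 3 of 3D_7d 4 fell between the time points. Of the 5 that rose between the time points, 3 did so without replicate 1 of 3D_7d and 2 without replicate 2 of 3D_7d. ERN1, which encodes IRE1, the enzyme that splices XBP1 mRNA, was 114 ± 9.88 CPM in 2D, 22.3 ± 3.57 in 3D_7d and 51.0 ± 4.20 in 3D_14d. Its log2 fold change was -2.35 at day 7 (edgeR adjusted p = 2.56e-06), -1.16 at day 14 (adjusted p = 1.65e-04) and 1.19 between the time points (adjusted p = 3.43e-04), so that it followed the order of MZB1. EDEM1 and DNAJB9 were also among the 5 genes of the list that fell at day 7, against 9 that rose. EDEM1 fell from 142 ± 12.8 to 73.9 ± 10.04 CPM and DNAJB9 from 79.3 ± 5.62 to 48.0 ± 5.71 CPM, and both rose again by day 14. HSPA5 (BiP), the main chaperone of the endoplasmic reticulum, behaved otherwise, with 1339 ± 20.6 CPM in 2D, 2684 ± 429 in 3D_7d and 1588 ± 209 in 3D_14d (log2 1.00, adjusted p = 2.94e-04, against 2D in 3D_7d and 0.25, adjusted p = 0.225, in 3D_14d). DNAJB11, its cochaperone, rose from 56.6 ± 2.51 to 117 ± 12.8 and 92.0 ± 9.67 CPM, and PDIA4, a disulfide isomerase, from 400.5 ± 24.2 to 564 ± 47.6 CPM at day 7 and fell to 331 ± 50.5 at day 14. HERPUD1 and SPCS1 rose at both times, SPCS1, a subunit of the signal peptidase, from 166 ± 15.0 to 252 ± 5.80 and 329 ± 57.9 CPM, and HERPUD1, a membrane protein of the degradation pathway, from 418 ± 6.68 to 626 ± 85.8 and 818 ± 107 CPM. SSR1, of the translocon, passed only in 3D_14d vs 2D (-0.58, adjusted p = 0.0034).

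The heavy chains that JCHAIN joins were, like it, higher in 3D than in 2D. IGHM had 7109 ± 199 CPM in 2D, and its log2 fold change was 1.73 (edgeR adjusted p = 3.64e-05) at day 7 and 1.89 (adjusted p = 3.21e-05) at day 14. IGHA1 was low, with 6.44 ± 1.27 CPM in 2D, 17.4 ± 10.6 in 3D_7d and 30.9 ± 11.2 in 3D_14d, as was IGHA2, with 1.26 ± 0.0658, 3.32 ± 1.81 and 7.32 ± 3.50 CPM. The IGHA genes are near-identical, so their reads may be split between them. All 3 heavy chains were past the threshold against 2D at both times, beside 22.2% of all tested genes up at day 7 and 19.0% at day 14. At day 7 only 1 remained so without replicate 3 of 2D or without replicate 1 of 3D_7d. From 3D_7d to 3D_14d, where JCHAIN was called higher, 0 heavy chains were higher and 0 lower by edgeR. The shares of all tested genes were 14.5% and 13.6%. IGHM differed by 0.16 (edgeR adjusted p = 0.572). At an unadjusted p under 0.05 1 was higher (IGHA2), and 1 was by DESeq2.

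Of the 4 ligands and receptors around TNFRSF17, 2 were lower at day 7 and 1 was higher at day 14, beside 21.2% and 19.0% of all tested genes. TNFSF13B (BAFF) fell from 8.03 ± 0.381 CPM in 2D to 4.76 ± 0.608 in 3D_7d (-0.75, edgeR adjusted p = 0.0142, lost without replicate 3 of 3D_7d) and had 6.13 ± 0.896 in 3D_14d. TNFSF13 (APRIL) had 0.789 ± 0.208 CPM in 2D, 1.73 ± 0.354 in 3D_7d and 2.52 ± 1.22 in 3D_14d (1.68 at day 14, adjusted p = 0.0119, lost without replicate 3 of 2D), and a readthrough gene overlaps it. With a mean under 1 CPM in 2D, TNFSF13 passed the filter on expression through its 3D samples, where it was high. Its p-value, and the count of 1 higher gene at day 14, are thus no separate support for its rise. TNFRSF13B (TACI), the receptor that shares both ligands with BCMA, had 70.2 ± 3.57, 68.7 ± 2.49 and 66.0 ± 4.98 CPM and did not pass in any comparison. The BAFF receptor TNFRSF13C is described among the genes activated by PAX5.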

How the data were processed

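RNA of 9 MEC1 samples was sequenced by the authors with a SMART-Seq protocol for low input and single reads. Per the labels, reads were trimmed with Trimmomatic (version 0.39), aligned to GRCh38 with STAR (version 2.5.3a) and assigned to genes with featureCounts (version 1.6.4). The strand setting and the treatment of reads with several alignments are not given in the sources used here. The deposited values are raw counts per gene symbol, without normalization.

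Samples were grouped by culture and time from the labels. In R (version 4.3.3), the filter kept genes that exceeded a CPM of 1 in 3 or more samples, TMM factors were computed with edgeR (version 4.0.16), and its quasi-likelihood test was applied to 3 contrasts in 1 model of all 9 samples, with an adjusted p threshold of 0.05 (Benjamini-Hochberg). The SE of a log2 fold change is its size divided by the square root of F. The filter used total counts as library sizes. Reported CPM values use TMM-scaled library sizes, and levels per kilobase divide by the exonic length in the deposited table. Named list genes are at most 2 per list, direction and contrast by p-value among those past the threshold, all genes of lists with 5 or fewer, and for each member the 3 closest profiles (log2 CPM with a prior count of 2). The members and lists were chosen with earlier results of these data known. Lists share genes (SPIB, CD22 and TNFRSF13C among them). Some genes that the rule picks are counted but not reported by name here.

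The alternatives were DESeq2's size factors, total counts alone, TMM without immunoglobulin, ribosomal protein and mitochondrial genes, the Wald test of DESeq2 (version 1.42.0), filterByExpr, no filter, a fit to the 6 samples compared, a block for replicate number, removal of a loess trend (span 0.4) with gene length, a minimum absolute log2 fold change of 1, and each sample left out. The pipeline was tested on simulated counts. Motifs were searched on both strands of the RefSeq windows.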

Additional observations from a re-analysis of the deposited data

Results flagged for a closer look

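For 4 of the 8 tested genes the effect of 3D culture against 2D differed between day 7 and day 14, 2 being higher and 2 lower. This was tested by the contrast of 3D_14d and 3D_7d, which compares the 3D samples directly. Of all tested genes, 14.5% were higher and 13.6% lower in it. IRF4 differed by -1.04 on the log2 scale, day 14 minus day 7 (edgeR adjusted p = 0.00213), with all 3 samples of 3D_14d below all 3 of 3D_7d. PRDM1 differed by -0.72 (edgeR adjusted p = 0.0266), also with no overlap. MZB1 was 0.84 higher (edgeR adjusted p = 0.00455) and JCHAIN 0.48 higher (edgeR adjusted p = 0.0414), each with all 3 samples of 3D_14d above all 3 of 3D_7d. The share of all tested genes without overlap between these groups was not computed. The calls for PRDM1 and JCHAIN were lost when single samples were left out, as given with each gene, and with a trend of gene length removed MZB1 was 0.32 (adjusted p = 0.075) and JCHAIN 0.20 (adjusted p = 0.249).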

How the results depend on the processing

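The 24 log2 fold changes of the 8 tested genes were recomputed in 18 settings each. Of these 432 values, 386 kept their direction and side of the threshold, 30 were no longer past it, 7 newly passed it and 9 changed sign. Of 990 values of the other named genes, 973 were kept and 17 lost the threshold. The counts of genes up-regulated (3) and down-regulated (2) at day 7 did not move by more than 1.5 times in any setting. The 2 up-regulated genes at day 14 became 1 with total counts, filterByExpr, no filter, only 6 samples or a minimum log2 fold change of 1, 4 with the gene length trend removed, and 1 to 2 when single samples were left out. The 2 down-regulated at day 14 became 1 with the minimum fold change. The 2 genes higher in 3D_14d than in 3D_7d became 1 with filterByExpr, no filter or 6 samples, 0 with the length trend removed or the minimum fold change, and 1 to 2 with samples left out. The 2 lower became 1 with 6 samples or the minimum fold change, and 1 to 2 with samples left out. The causes were not tested. All values that changed sign belonged to comparisons not past the threshold. With total counts XBP1 was -0.073 and IRF4 -0.16 in 3D_14d vs 2D. IRF4 in this comparison was also -0.029 without a filter, and between -0.12 and 0.19 with samples left out, below 0 without 2D replicate 1 (-0.064), 2D replicate 2 (-0.0023) or 3D_14d replicate 3 (-0.12). With the length trend removed XBP1 was 0.088 in 3D_7d vs 2D and TNFRSF17 -0.28 in 3D_14d vs 3D_7d, and the latter lay between -0.0096 (without 3D_14d replicate 1) and 0.36 with samples left out. Scaling by total counts moved the median of all genes to -0.16 at day 7 and -0.18 at day 14, and the share of higher genes among those called from 51.1% to 37.6% and from 52.5% to 33.0%.

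Replicate numbers were not treated as pairs: the deviations of same-numbered samples correlated with r of -0.10 to 0.19 over 9 pairs, and those of differently numbered samples with -0.13 to 0.08 over 18. With the replicate number as a block, JCHAIN in 3D_14d vs 3D_7d was not past the threshold (0.46, edgeR adjusted p = 0.0511), leaving 1 gene higher, and TNFRSF17 in 3D_14d vs 2D passed it (0.43, edgeR adjusted p = 0.0454). The block changed no other call of the 8 genes. Of 912 counts of the lists over all settings, 96 moved by more than 1.5 times. Counts with the minimum log2 fold change of 1 are not given for every list. BCL6 and BACH2, at 66 counts or fewer per sample, were too low for the filter.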
